A study of Homo sapiens with 6 samples.

Results

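The genes of prostaglandin E2 (PGE2) synthesis, transport, breakdown and reception were examined in breast cancer cells that had become resistant to Adriamycin. The genes were taken by their symbol from the table of counts, so 10 of its 58735 genes are described: PLA2G4A, PTGS1, PTGS2, PTGES, PTGES2, PTGES3, SLCO2A1, HPGD, PTGER2 and PTGER4. MDA-MB-231 is an established human triple-negative breast cancer line. Polyadenylated RNA was sequenced from 3 libraries of the parent line (wild type) and from 3 libraries of ADRr cells, its resistant derivative. ADRr cells had been raised from the parent line by stepwise exposure to Adriamycin (doxorubicin, an anthracycline that poisons topoisomerase II) and then cloned by limiting dilution, so these libraries may describe 1 clone rather than resistant cells in general. Whether the drug was present at harvest is not given in the sources used here. The design text of the series speaks of 3 time points, but no sample label names a time or a separate culture, so the 3 libraries of each line were treated as replicates. Any difference between time points would be part of every SD given here. The p-values measure the spread between these libraries, which may be technical.

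PGE2 is a short-lived lipid signal that acts on the cell that makes it and on its neighbours. Cytosolic phospholipase A2 releases arachidonic acid from membranes, cyclooxygenases convert it to prostaglandin H2, and PGE synthases turn that into PGE2. A carrier in the plasma membrane takes PGE2 up, a dehydrogenase inactivates it inside the cell, and the receptors EP2 and EP4 signal through Gs and cyclic AMP. In breast tumours the inducible cyclooxygenase, PTGS2, is the best known of these genes for its ties to inflammation, migration and immune evasion.

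In ADRr cells the transcript of the uptake carrier SLCO2A1 rose from near 0, and that of cyclooxygenase 1 (PTGS1) fell 3.66-fold. The receptors moved in opposite directions: PTGER4 (EP4) rose 1.66-fold and PTGER2 (EP2) fell 2.06-fold. The 3 PGE synthases had estimated changes under 1.2-fold, while PTGS2, HPGD and PLA2G4A had at most 13 counts in any library. A gene was called when edgeR's quasi-likelihood test gave an adjusted p of at most 0.05 and the fold change was at least 1.2 in either direction. Of the 10 genes 7 had enough counts to be tested, and 2 were called higher and 2 lower (57.1% of those tested), where 58.8% of all 15242 genes tested were called, 29.2% higher and 29.6% lower. The share called was thus close to that of the whole transcriptome. SLCO2A1 is among those called higher, but it had enough counts in ADRr cells alone and so had to differ to be tested. Where at least 10 counts were asked of every library, 6 of the 10 genes were tested, 1 called higher and 2 lower. On the adjusted p alone 5 of the 7 passed, against 66.0% of all genes. The 3 parent and 3 ADRr normalized counts did not overlap for 6 of the 7, 3 higher and 3 lower in ADRr cells, against 69.2% of all genes (34.5% higher and 34.7% lower). The 3 higher include SLCO2A1, to which the same limit applies.

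**Figure D1:**
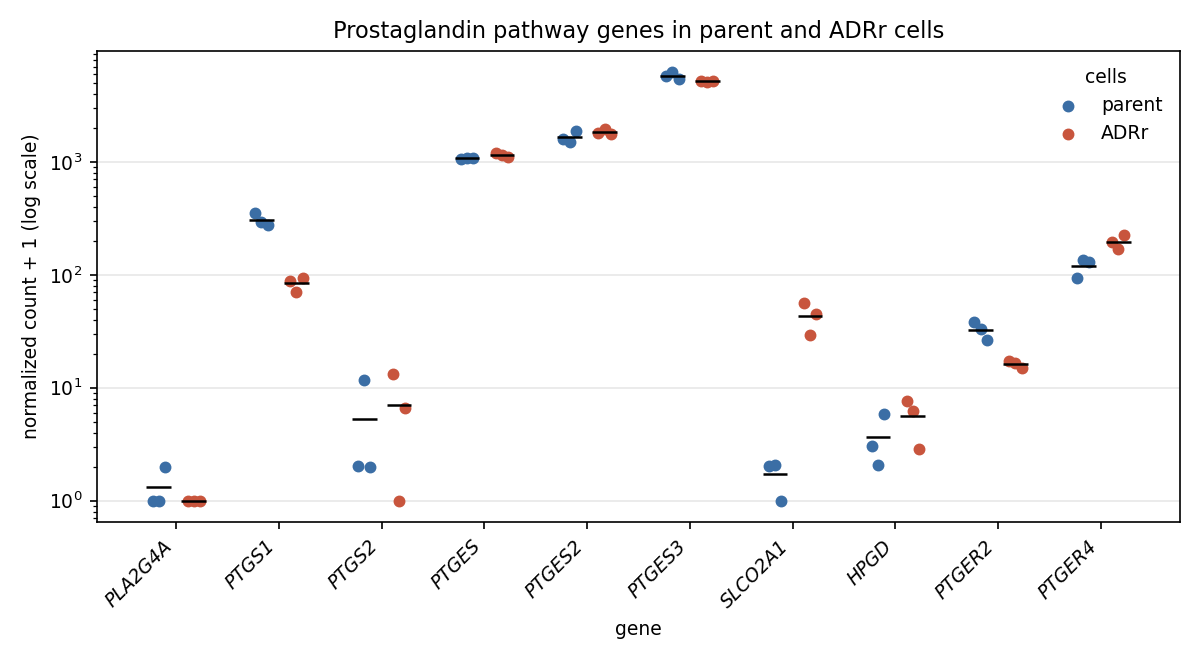
Normalized counts plus 1 of the 10 genes on a log axis, with 1 point for each library and a bar at the mean of 3 libraries. SLCO2A1 lies at or near 0 in parent cells and at normalized counts of 28.3 to 55.2 in ADRr cells, PTGS1 and PTGER2 lie lower in ADRr cells, and PTGS2 and HPGD overlap between the groups.

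Total counts per library ranged from 15983985 to 18272314, and 3 counts, the floor for detection used here, corresponded to 0.164 to 0.188 CPM (counts scaled to a common library total). All 6 marker genes expected in MDA-MB-231, such as VIM and CD44, were above 1 CPM in every library. Of these, 3 were called lower in ADRr cells, VIM among them, and 2 higher, CD44 among them. ESR1 and PGR, the hormone receptors that this line lacks, had at most 1 count. Of 9 genes listed as low in this line, 5 (ERBB2, GATA3, CDH1, KRT8 and EPCAM) were above 1 CPM. The list summed to 741 to 841 CPM in parent and 257 to 273 CPM in ADRr cells. KRT8 made up most of this sum, at 576 to 652 CPM in parent and 148 to 162 CPM in ADRr libraries. KRT8, ERBB2 and CDH1 were called lower, EPCAM was called higher and GATA3 was not called. Leukocyte markers, 9 of 10 under 1 CPM, summed to 4.94 to 7.57 CPM in parent and 5.20 to 6.60 CPM in ADRr cells, with PTPRC at no more than 2 counts. Fibroblast markers, 6 of 8 under 1 CPM, summed to 65.0 to 68.9 CPM in parent and 10.7 to 12.7 CPM in ADRr cells. This sum was mostly a single gene, PDGFRB, which was called lower. It had 999, 1018 and 1122 counts in parent and 148, 127 and 168 in ADRr libraries. Endothelial and platelet markers, 6 of 8 under 1 CPM, summed to 4.63 to 6.05 CPM in parent and 9.25 to 10.3 CPM in ADRr cells. Most of that sum was KDR, which was called higher, whereas ITGA2B had 9, 18 and 15 counts in parent and 0, 6 and 4 in ADRr libraries. The part of these lists in the results that follow was not tested. In bulk RNA, fewer cells of a type and less RNA per cell cannot be told apart.

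The sequences upstream of the cyclooxygenases and of EP2 are shown as examples that carry different promoter elements. These genes were either lower in ADRr cells or near 0 in both lines. HPGD and PLA2G4A were also near 0 in both lines, but their sequences are not printed. Each is the 250 bases before a RefSeq start (GRCh38.p14), written 5′ to 3′ on the strand of the gene, and capitals mark matches. The elements searched were the TATA box (TATAAA, given strand), the cyclic AMP response half-site (TGACG), the AP-1 site (TGANTCA), the STAT site (TTCNNNGAA), the E-box (CACGTG), the GC box (GGGCGG) and the NF-κB site, all but the first on both strands. The NF-κB pattern was GGG, RNNYY and CC in a row, with R a purine, Y a pyrimidine and N any base. PTGS1 has a window at chr9:122370283-122370532 and another at chr9:122375052-122375301, both on the plus strand. The window of PTGS2 is at chr1:186680424-186680673 on the minus strand, and that of PTGER2 at chr14:52314062-52314311 on the plus strand.
PTGS1, outer start: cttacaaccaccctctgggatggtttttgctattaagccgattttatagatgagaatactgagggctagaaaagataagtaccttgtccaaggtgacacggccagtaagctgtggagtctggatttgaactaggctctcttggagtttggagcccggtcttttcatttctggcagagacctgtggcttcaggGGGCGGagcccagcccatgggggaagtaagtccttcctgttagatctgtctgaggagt
PTGS1, inner start: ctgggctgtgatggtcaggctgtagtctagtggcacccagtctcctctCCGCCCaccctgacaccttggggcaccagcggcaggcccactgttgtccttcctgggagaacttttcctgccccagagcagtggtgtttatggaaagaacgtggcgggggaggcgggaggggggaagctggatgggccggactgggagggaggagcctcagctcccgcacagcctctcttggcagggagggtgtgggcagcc
PTGS2: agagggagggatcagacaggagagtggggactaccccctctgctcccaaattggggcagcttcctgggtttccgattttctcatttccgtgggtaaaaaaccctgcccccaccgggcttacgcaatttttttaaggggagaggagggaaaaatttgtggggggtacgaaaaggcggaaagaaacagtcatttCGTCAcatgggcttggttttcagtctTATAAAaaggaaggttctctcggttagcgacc
PTGER2: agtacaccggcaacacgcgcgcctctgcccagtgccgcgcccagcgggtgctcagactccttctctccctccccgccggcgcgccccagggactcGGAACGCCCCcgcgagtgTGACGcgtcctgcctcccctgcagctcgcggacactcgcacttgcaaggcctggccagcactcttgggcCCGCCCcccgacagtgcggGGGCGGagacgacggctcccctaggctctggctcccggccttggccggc

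PTGS2, the inducible cyclooxygenase, held a TATA box 32 bases and a cyclic AMP half-site 58 bases before its start. Its window had no match to the NF-κB pattern, but the stretch gggactaccc in it departs from that pattern only at the first Y. The lack of a match thus does not mean that no such site is there. Among 34796 windows of the same length a TATA box was found in 6.8% and the half-site in 21.2%. Neither window of PTGS1, the constitutive cyclooxygenase, had these elements, and each held a GC box, which 42.6% of all windows contained. PTGER2 held a half-site, GC boxes and an NF-κB site (the last in 10.0% of all windows). GC boxes and an NF-κB site were also matched upstream of PTGER4, which rose, and of PTGES3 and HPGD. The half-site was matched upstream of PTGES3 and HPGD as well, so none of these elements is particular to PTGER2. A match is a run of letters in a window and says nothing of whether a factor bound there. RefSeq promoters were found for 9 of the 10 genes, SLCO2A1 not among them.

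Release of the substrate came first. PLA2G4A, cytosolic phospholipase A2 alpha, the enzyme that frees arachidonic acid in stimulated cells, lies at chr1:186828953-186988981 and had 0, 0 and 1 counts in parent libraries and 0, 0 and 0 in ADRr libraries. Its transcript was at or under the floor of 3 counts in both lines, so no fold change is given.

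The cyclooxygenases differed from each other in level and in change. PTGS1 (ENSG00000095303, chr9:122370530-122395703), the enzyme that supplies prostaglandins at rest, had 341, 272 and 281 counts in parent libraries and 92, 67 and 99 in ADRr libraries. Every ADRr library was below every parent library. Its normalized count, scaled to a library of 17126283 reads, fell from 306 ± 40.0 to 83.4 ± 11.7 (SD, n = 3 each), a log2 fold change of -1.87 (SE 0.139, 95% interval -2.16 to -1.58, edgeR adjusted p = 6.1e-11). A change at least as large in either direction was seen in 5.19% of the genes tested.

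PTGS2 (ENSG00000073756, chr1:186671791-186680427) had 1, 10 and 1 counts in parent libraries and 13, 0 and 6 in ADRr libraries. The groups overlapped fully, with 1 high library in parent cells and an ADRr library at 0. Summed over libraries there were 12 counts in parent and 19 in ADRr cells, a ratio per read of 1.53 with a 95% counting interval of 0.706 to 3.46, so a change of PTGS2 was not detectable at this depth. Intervals of this kind cover counting error only.

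Between genes, levels were compared as FPKM, in which counts are divided by gene length and library total. PTGS1 stood at 3.02 ± 0.404 FPKM in parent and 0.826 ± 0.118 FPKM in ADRr cells, and PTGS2 at 0.0463 ± 0.0614 and 0.0653 ± 0.0674 FPKM. The summed level of both was 3.49, 3.02 and 2.71 FPKM in parent libraries and 1.00, 0.692 and 0.979 FPKM in ADRr libraries, without overlap. PTGS2 made up 1.53 ± 2.04% of this sum in parent and 6.56 ± 6.73% in ADRr cells (exact permutation test, two-sided, p = 0.4, where 3 against 3 libraries cannot go below 0.1). Without ADRr replicate 1, which alone had a share of 13.4%, the difference of 5.03 percentage points became 1.59.

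The terminal synthases had the highest levels of the 10 genes by FPKM. PTGES3, better known as the HSP90 co-chaperone p23, had 5572, 5778 and 5602 counts in parent and 5497, 4852 and 5643 in ADRr libraries. After normalization the groups did not overlap, at 5814 ± 403 and 5193 ± 102. Its log2 fold change was -0.16 (SE 0.053, edgeR adjusted p = 0.0098), which passed the threshold on p but not that on fold change.

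PTGES, the inducible microsomal synthase that works with PTGS2, had 1032, 1009 and 1110 counts in parent and 1263, 1112 and 1186 in ADRr libraries. Normalized counts were 1078 ± 15.0 and 1158 ± 47.4, and each ADRr library lay above each parent library by this measure. The log2 fold change of 0.10 (95% interval -0.03 to 0.23, edgeR adjusted p = 0.157) did not pass, and the interval ends below the 1.2-fold threshold of 0.263. PTGES2, a synthase bound to Golgi membranes, had 1566, 1394 and 1913 counts in parent and 1894, 1878 and 1889 in ADRr libraries. These groups overlapped, and the log2 fold change was 0.15 (SE 0.070, edgeR adjusted p = 0.066).

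The 3 synthases together held 162 ± 4.12 FPKM in parent and 157 ± 1.28 FPKM in ADRr cells. PTGES accounted for 20.1 ± 0.337% of that level in parent and 22.2 ± 0.702% in ADRr cells, and PTGES3 for 60.5 ± 2.81% and 55.7 ± 1.43%. Neither share overlapped between the lines, and both gave the smallest exact permutation p that the design allows (0.1, two-sided). PTGES and PTGES2 were at nearly equal levels in both lines, 32.5 and 31.2 FPKM in parent and 35.0 and 34.8 FPKM in ADRr cells, and could not be ranked beyond their spread.

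**Figure D2:**
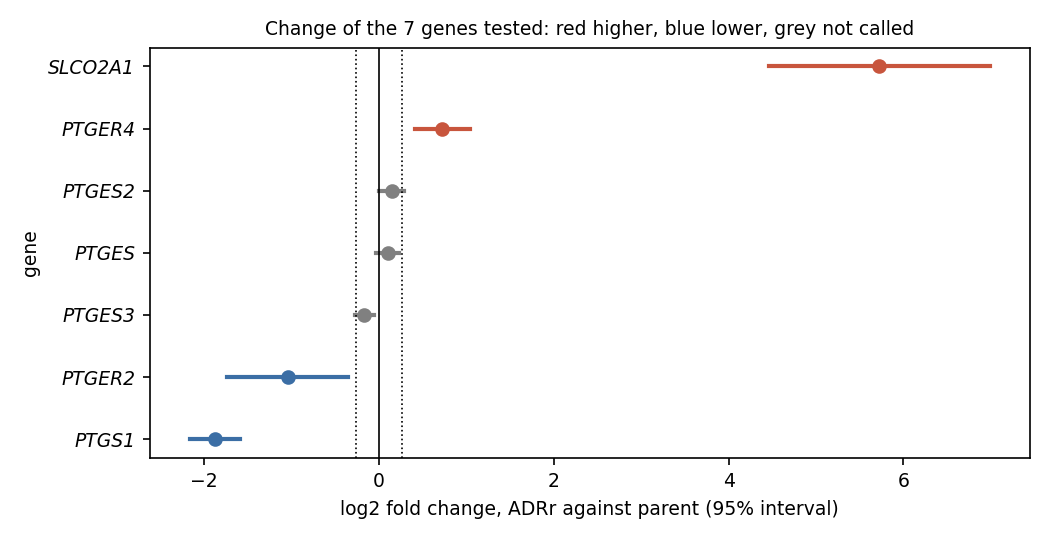
Log2 fold change of the 7 genes tested (points) with 95% intervals (lines), ADRr against parent, and dotted lines at a fold change of 1.2 in each direction. SLCO2A1 and PTGER4 (red) were called higher, PTGS1 and PTGER2 (blue) lower, and the 3 synthases (grey) were not called.

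SLCO2A1 (ENSG00000174640, chr3:133928145-134052184, minus strand), the prostaglandin transporter that carries PGE2 into cells for inactivation, had 1, 1 and 0 counts in parent libraries and 58, 27 and 47 in ADRr libraries. The parent libraries were at the edge of detection and every ADRr library was well above them. Per read this is a ratio of 63.9 with a 95% counting interval of 17.3 to 533, resting on 2 parent counts against 132 ADRr counts. SLCO2A1 passed the filter on low counts (0.578 CPM in at least 3 libraries) only through ADRr cells, so it had to differ in order to be tested. The fitted log2 fold change, which depends on the prior count, was 5.72 (SE 0.609). Because of the filter, its call and its rank among tested genes are no separate evidence of a rise. Filters that ask for counts in every library or for a mean FPKM of at least 0.5 removed the gene. Even so its level in ADRr cells, 0.248 ± 0.0792 FPKM, exceeded that of only 39.7% of protein-coding genes.

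Breakdown of PGE2 begins with HPGD, the dehydrogenase that oxidizes it after uptake. HPGD had 2, 1 and 5 counts in parent and 7, 5 and 2 in ADRr libraries. The groups overlapped and the ratio per read was 1.69 with a 95% counting interval of 0.663 to 4.66, so no change was detectable at this depth. The rise of the carrier was thus measured in cells with very few HPGD transcripts in either line.

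Of the receptors, PTGER4 (ENSG00000171522, chr5:40679498-40693735), which encodes EP4, had 90, 125 and 132 counts in parent and 206, 161 and 241 in ADRr libraries. The lowest ADRr library was above the highest parent library. Its normalized count rose from 119 ± 22.9 to 197 ± 28.3, a log2 fold change of 0.73 (95% interval 0.41 to 1.04, edgeR adjusted p = 2.2e-04). The whole of PTGER4 lies inside the span of TTC33 on the opposite strand, but the exons share 0 bases, and TTC33 itself rose by a log2 of 0.32. Whether counting used strand is not given in the sources used here.

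PTGER2 (ENSG00000125384, chr14:52314305-52328606), which encodes EP2, had 36, 30 and 26 counts in parent and 17, 15 and 15 in ADRr libraries. The groups did not overlap, with normalized counts of 31.6 ± 5.91 and 15.3 ± 1.14. The log2 fold change of -1.04 had a wide 95% interval, -1.73 to -0.35 (edgeR adjusted p = 0.0089), at 15 to 36 counts per library. EP4 made up 61.0, 72.2 and 76.0% of the summed FPKM of both receptors in parent libraries and 88.3, 87.0 and 90.9% in ADRr libraries. The mean share went from 69.7 ± 7.84% to 88.8 ± 2.00% (exact permutation test, two-sided, p = 0.1, the smallest possible), and the summed level was 2.45 ± 0.250 and 3.20 ± 0.399 FPKM. Both receptor calls were lost when the threshold was set at a log2 fold change of 1.2 instead of a fold change of 1.2.

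**Figure D3:**
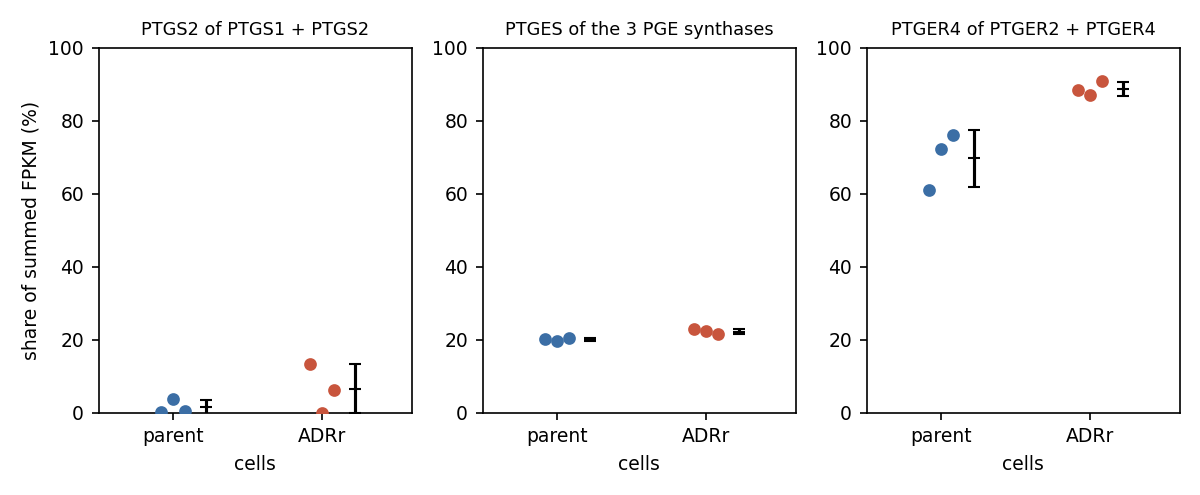
Share of summed FPKM, in percent, held by PTGS2 among the cyclooxygenases, PTGES among the 3 PGE synthases and PTGER4 among EP2 and EP4. Points are libraries and the bars beside them are the mean ± SD of 3. The PTGER4 share lies at 61.0 to 76.0% in parent and 87.0 to 90.9% in ADRr libraries, whereas the PTGS2 shares overlap.

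By FPKM the order in parent cells ran PTGES3, PTGES, PTGES2, PTGS1, PTGER4, PTGER2, PTGS2, HPGD, PLA2G4A and SLCO2A1. In ADRr cells it ran PTGES3, PTGES, PTGES2, PTGER4, PTGS1, PTGER2, SLCO2A1, PTGS2, HPGD and PLA2G4A. PTGER4 and PTGS1 had thus changed places, at 1.71 and 3.02 FPKM in parent and 2.85 and 0.826 FPKM in ADRr cells. Apart from PTGES and PTGES2, neighbours that overlapped were those from PTGS2 downward in parent cells, and PTGS2 and HPGD in ADRr cells.

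The pathway genes around these 10 were described through 9 lists holding 203 genes, of which 140 were tested and 45 were called higher and 33 lower (55.7%, median log2 fold change 0.03). Over all genes tested the median was -0.01, and 58.8% were called, 29.2% higher and 29.6% lower, which is the background for each count of a list or of neighbours that follows. The list named for arachidonate release gave 9 higher and 2 lower of 19 tested (57.9% called), with a median of 0.30. It also holds enzymes that activate fatty acids or return them to phospholipids, so its count does not describe release alone. The 2 called lower, MBOAT7 (-0.89) and ACSL1 (-0.29), are of that kind, as is ACSL5, which rose. PLA2G4C, a calcium-independent cytosolic phospholipase, had 58, 64 and 55 counts in parent and 210, 233 and 216 in ADRr libraries (log2 fold change 1.82). PLA2G6 (1.41), another calcium-independent phospholipase, and ACSL5 (1.23), which couples fatty acids to coenzyme A, also rose. Each of these 3 had at least 10 normalized counts in both lines, unlike PLA2G4A.

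Other prostanoid synthases gave 1 higher and 1 lower of 5 tested (40.0% called). AKR1B1, an aldose reductase that can make PGF2α, fell from 13240 ± 479 to 7611 ± 422 normalized counts, and TBXAS1, thromboxane synthase, rose by a log2 of 0.51 (edgeR adjusted p = 0.049). Of 8 other receptor genes 6 were too low to test. The 2 tested both fell: TBXA2R, the thromboxane receptor, by 1.45 on the log2 scale, and PTGFRN, which is a partner of the PGF receptor rather than a receptor, by 2.10. PTGFRN reached the filter on low counts in parent cells alone.

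For transport and breakdown beyond SLCO2A1 and HPGD, 4 of 10 tested rose and 4 fell (80.0% called). The related carriers SLCO4A1 (log2 fold change 3.09) and SLCO2B1 (3.19) rose, and SLCO1B3 (-2.40) fell. SLCO2B1 reached the filter in ADRr cells alone and so had to differ, with 13 counts over the parent and 127 over the ADRr libraries (ratio per read 9.45, 95% counting interval 5.33 to 18.2). SLCO4A1 had 60, 36 and 56 counts in parent and 493, 385 and 485 in ADRr libraries. ABCC4, the pump that exports PGE2, was picked after its value was seen, and rose from 585 ± 45.1 to 1253 ± 78.5 normalized counts (log2 fold change 1.10, edgeR adjusted p = 1.3e-11).

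The lipoxygenase and leukotriene branch, which uses the same arachidonic acid, had 7 of 15 tested higher and 1 lower (53.3% called). The epidermal lipoxygenases ALOXE3 and ALOX12B, called higher at fitted log2 fold changes of 5.17 and 2.92, reached the filter in ADRr cells alone and so had to differ. ALOXE3 had 3, 3 and 4 counts in parent and 130, 117 and 145 in ADRr libraries, a ratio per read of 37.9 (95% counting interval 20.4 to 79.7). For ALOX12B, with 15 counts over the parent and 122 over the ADRr libraries, the ratio was 7.87 (4.59 to 14.5). MGST2, which can conjugate leukotriene A4, fell by 1.24.

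Downstream of EP2 and EP4, the Gs, cyclic AMP and protein kinase A genes gave 7 higher and 9 lower of 28 tested (57.1% called), with a median of -0.07. PRKAR2B, a regulatory subunit of protein kinase A, had 150, 144 and 144 counts in parent and 10, 15 and 23 in ADRr libraries (log2 fold change -3.26). ARRB2, the arrestin that desensitizes receptors, rose by 1.98, and PDE4B, which breaks down cyclic AMP, fell by 1.81. PDE4D, a phosphodiesterase of the same family picked after its value was seen, went the other way, from 267 ± 49.8 to 738 ± 39.8 normalized counts (log2 fold change 1.47), and PDE4A was not called (0.03). Among genes known to respond to cyclic AMP 7 of 19 rose and 3 fell (52.6% called). The largest rises were those of DUSP1 (2.25), ATF3 (2.12) and AREG (1.69), all of which answer to other signals as well. The 3 that fell were BDNF (-0.91), NR4A1 (-0.85) and CRTC3 (-0.40).

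The list of regulators of PTGS2 messenger RNA, which also holds transcription factors and kinases, gave 9 higher and 5 lower of 24 tested (58.3% called). TNFAIP3, an inhibitor of NF-κB, rose by 1.40, and ZFP36 and ZFP36L2, which bind AU-rich elements and promote decay, each rose by 1.14. Among those called lower, HNRNPD (-0.74) and CEBPD (-0.90) were picked after their values were seen. The last list held HSP90 and its partners, the proteins that p23 works with as a chaperone. There 6 of 18 tested fell and 1 rose (38.9% called, median -0.18), and UNC45A (-1.37), HSPA8 (-1.25) and HSP90AA1 (-1.05) fell, where PTGES3 itself had -0.16. HSPA8 went from 31910 ± 2107 to 13360 ± 245 normalized counts.

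**Figure D4:**
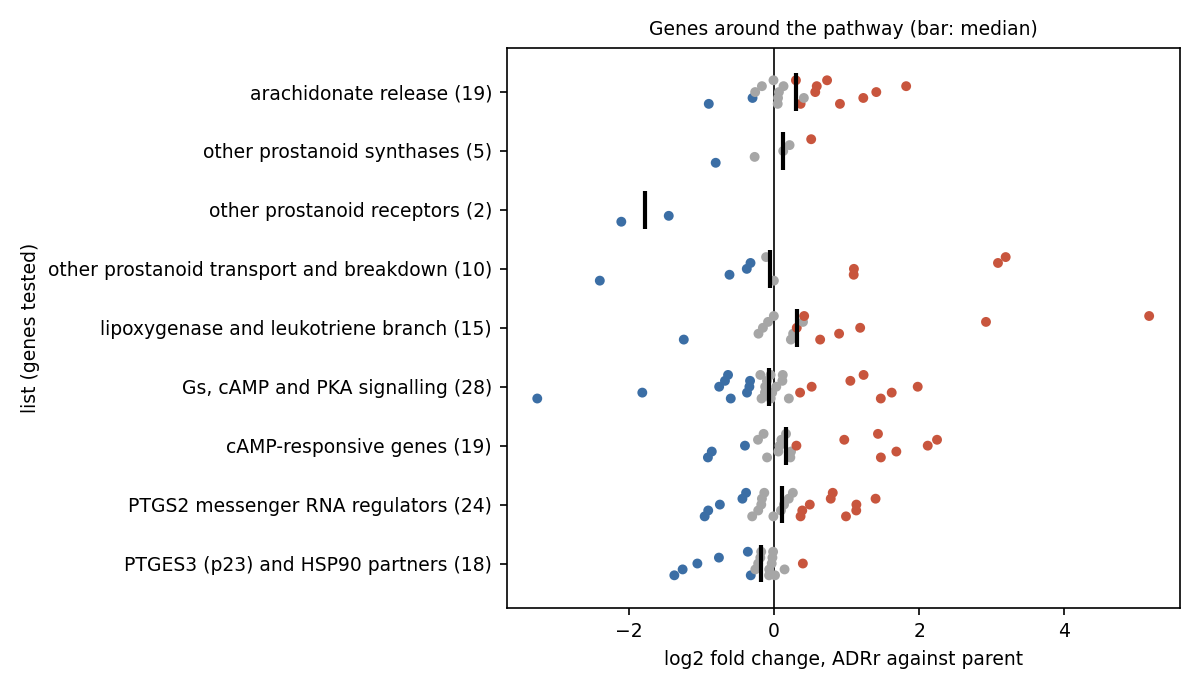
Log2 fold change, ADRr against parent, of each tested gene in the 9 lists (red called higher, blue called lower, grey not called), with a black bar at the median of the list and the number tested in parentheses. Medians lie between -0.18 and 0.32 except for the list of other receptors, which has 2 genes.

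Across the 6 libraries and 12610 protein-coding genes, the profiles nearest to that of SLCO2A1 in centred log2 CPM were those of NEURL1 (distance 0.699), IL1B (0.747) and PDE9A (0.783). Those nearest to PTGS1 were POP5 (0.248), DNA2 (0.295) and CCNE2 (0.312). The libraries form 2 groups of 3, so this distance is mostly set by the difference between the lines. The fitted log2 fold changes of the 3 genes nearest to SLCO2A1 were 3.85, 3.78 and 4.05, each below that of SLCO2A1. The distances use log2 CPM with a prior count of 2, which shrinks changes from counts near 0. The fitted values are thus on another scale, and this gap is no trait of SLCO2A1.

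Genes next to the changed ones were read within 500 kb. Around SLCO2A1 there were 9 tested genes, 4 higher and 2 lower, with log2 fold changes from -1.04 to 0.72, so none came near its 5.72. RYK, the nearest, rose by 0.31. Around PTGS1 2 of 7 were higher and 2 lower (median 0.03), none as low as PTGS1 itself. Around PTGER2 4 of 8 were lower and 2 higher, and among them TXNDC16 (-0.99) and GPR137C (-1.10) fell by about as much as PTGER2. PTGER4 had 4 tested neighbours with changes from 0.16 to 0.32, of which TTC33 was the one called. PTGS2 and PLA2G4A lie 148525 bases apart on chromosome 1 and shared 3 tested neighbours, none of them called.

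**Figure D5:**
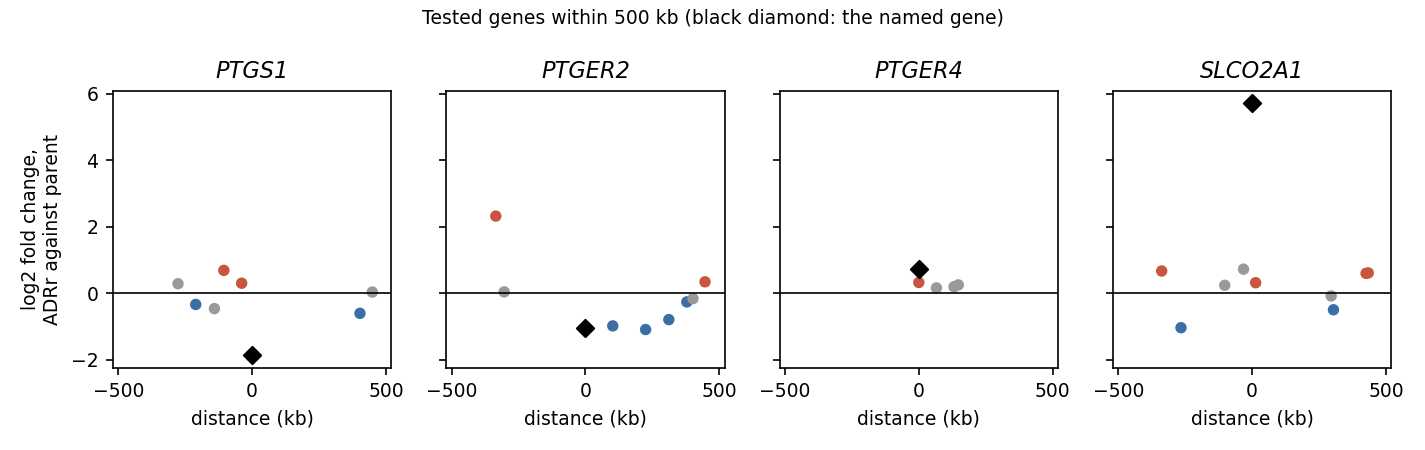
Log2 fold change of tested genes against their distance in kb from PTGS1, PTGER2, PTGER4 and SLCO2A1 (black diamonds), with red for genes called higher, blue for lower and grey for not called. The neighbours of SLCO2A1 lie between -1.04 and 0.72, and several on the right of PTGER2 lie near its own value of -1.04.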

How the data were processed

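RNA-seq of 3 parent and 3 ADRr libraries of MDA-MB-231 cells was analysed from 2 tables. The deposited counts are whole numbers of fragments per gene without normalization, and the deposited FPKM values are the same counts divided by gene length and by a library constant. According to the methods and the processing notes of the submitters, the authors mapped reads to GRCh38 with HISAT2 2.0.5 and counted them with featureCounts 1.5.0-p3. All 58735 gene rows matched GENCODE 29. The strand setting is not given in the sources used here.

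Counts were filtered with filterByExpr, normalized with TMM and tested with edgeR 4.0.16 in R 4.3.3 (quasi-likelihood test, Benjamini-Hochberg adjustment over 15242 genes, no block). The calling thresholds were 0.05 on adjusted p and 1.2 on fold change, in either direction. Shares of FPKM were compared with exact permutation tests in scipy 1.17.1. Alternatives used DESeq2 1.42.0, limma 3.58.1 on log2(FPKM + 1) or log2(FPKM + 0.1), other filters, thresholds and normalizations, a replicate block, and each library left out. Scripts were tested on simulated data.

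The 10 genes, the 9 lists and the tests were chosen with earlier results of these data known. Named genes were the 10, the 3 called genes of each list with the largest absolute log2 fold change whose higher group averaged 10 or more normalized counts, and the 3 nearest profiles of SLCO2A1 and PTGS1. Promoter sequences came from RefSeq (GRCh38.p14).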

Additional observations from a re-analysis of the deposited data

How the results depend on the processing

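Under 17 alternatives 236 values were recomputed. A tested change was taken as kept when its direction and side of the threshold held, a count when it was within 1.5 times the reported count, and a share when it moved by less than 1 SD. By these measures 224 values were kept and 12 changed, and no tested change turned sign. SLCO2A1 was removed where at least 10 counts were asked of every library and under limma on log2(FPKM + 1) or log2(FPKM + 0.1) with a mean FPKM of at least 0.5, which left 1 of the 10 genes called higher. With a threshold of 1.2 on the log2 scale, 1 of the 10 was called higher and 1 lower, 1114 genes higher and 972 lower over all tested genes, where the fold change of 1.2 gave 4451 and 4507, and 17 higher and 8 lower among other pathway genes, where it gave 45 and 33. PTGER2 and PTGER4 lost their calls there, and PTGES3 gained one on the adjusted p alone, which made 3 genes lower. The log2 fold change of PTGS1 ranged from -1.95 to -1.14, that of PTGER2 from -1.18 to -0.35, that of PTGER4 from 0.51 to 0.83 and that of SLCO2A1 from 0.31 (unfiltered log2(FPKM + 1), which shrinks low genes by its construction) to 6.09. Leaving out each library in turn kept 2 genes called higher and 2 lower, with an adjusted p of PTGER2 by edgeR of up to 0.047. The PTGS2 share differed by 1.59 to 8.31 percentage points, the PTGES share by 1.77 to 2.47 and the PTGER4 share by 14.6 to 22.2. Same-numbered libraries did not deviate together from the means of their lines (correlations 0.00735, -0.0213 and -0.0457). With so few libraries in each line, these values cannot show whether same-numbered libraries shared a culture or a time point. With a replicate block 2 of the 10 genes were called higher and 2 lower, and 4406 genes were higher and 4464 lower over all tested, and it changed no other call. Depth limits PTGS2, HPGD and PLA2G4A, which were not called under any fit that kept them.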

Other observations

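Without a filter on low counts, edgeR gave PTGS2 a log2 fold change of 0.53 (SE 0.773, adjusted p = 0.619) and HPGD one of 0.73 (SE 0.951, adjusted p = 0.573). HPGD, on chromosome 4, had 2 tested neighbours within 500 kb, and both were lower in ADRr cells, with log2 fold changes of -0.93 and -0.88. Over all genes tested 58.8% were called. PTGES had 11 tested neighbours, of which 1 was called higher and 0 lower, and PTGES2 had 32, of which 11 were higher and 5 lower. PTGES3 had 26, of which 5 were higher and 12 lower, with a median log2 fold change of -0.31 beside its own -0.16.

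By length-corrected level PTGES3 exceeded 98.4% of protein-coding genes in parent and 98.2% in ADRr cells. PTGS1 exceeded 57.6% in parent and 45.9% in ADRr cells, and PTGER4 51.3% and 57.1%. ALOX5, the lipoxygenase that starts leukotriene synthesis, was chosen after its value was seen and rose from 145 ± 7.12 to 331 ± 25.9 normalized counts (log2 fold change 1.19, edgeR adjusted p = 3.2e-09).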
